A study of Rattus norvegicus with 12 samples.

Results

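Gene expression after 48 h of forskolin was compared with that of unstimulated cells on 3 two-colour rat arrays, 3 of the 12 arrays of a time course. The cells were F11, a hybrid line of rat sensory neurons of the dorsal root ganglion and mouse neuroblastoma that serves as a culture model of sensory neurons. All cells were first kept for 3 h in medium with 0.5% serum. Those of the 48 h arrays then had 10 µM forskolin for 48 h, and the other arrays of the series held cells given the same dose for 2, 4 or 24 h, with 3 arrays each. The reference on every array was RNA of F11 cells after the 3 h in low serum, with no forskolin. The 3 arrays were taken by their time label, and all probes other than control probes were described across genes. Every change is a log2 ratio of forskolin (Cy3, green) over reference (Cy5, red), so that 1 is a doubling and -1 a halving. The reference counted as 1 control sample, and its own spread between cultures does not enter the tests. No array held cells kept for 48 h without forskolin, so a change at 48 h can be one of forskolin, of the time in culture or of both. The dyes ran the same way on all 12 arrays, so a gene's own dye effect remains in its ratio to the reference but drops out of a difference between times. The 48 h sample was always the fourth array of its slide, and the labels do not say that the 3 replicates were separate cultures. The p-values thus rest on the spread of these samples alone, which may be technical. A rat probe may also have bound the mouse transcripts of the hybrid cells, and the changes of both copies cannot be told apart.

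Forskolin activates adenylyl cyclase, the enzyme that makes cyclic AMP. Cyclic AMP activates protein kinase A, which phosphorylates the transcription factor CREB and within hours switches on genes with cyclic AMP response elements, among them those of its own inhibitors. In neuroblastoma and other neuron-like cells, a sustained rise of cyclic AMP is known to slow division and to favour neurites and the regulated secretory pathway.

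The tests covered 17802 genes, those with a probe that rose well above background in 1 or both channels on each of the 3 arrays of some time point. On the 48 h arrays, between 20261 and 21973 of the 43379 non-control spots exceeded background clearly in green (forskolin) and between 19504 and 21863 in red (reference). At 48 h 10179 genes (57.2% of those tested) were called at an adjusted p under 0.05, 4784 higher (26.9%) and 5395 lower (30.3%). The counts called at 48 h in each gene list below are to be read beside these shares. Most of the called changes were small: 235 called genes (1.32%) were higher by 2-fold or more, and 232 (1.3%) were lower by as much. With each array centred on its median in place of the loess step, the same counts were 90 higher and 1184 lower. They were 536 and 488 with a normexp offset of 0, and 958 and 1026 with the scanner software's processed signals. The middle 90% of genes lay between -0.59 and 0.60, and the median gene was at -0.02. The median SD over the 3 arrays was 0.088. Of the called genes, 9957 (97.8%) had the same sign on all 3 arrays, and the arrays correlated with each other across genes at 0.853 to 0.94. Without the loess step, the log2 ratios of the brightest 5% of probes were lower than the rest by 0.77 to 1.04. The direction of a modest change in a bright gene thus rests on that step. Modest changes of dim genes can rest on it too. Ckap2l and Ddc, each near background in at least 1 channel, were called higher with median centring (0.59 and 0.31) but not with loess.

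The markers of the labelled cell type were present. Of 16 neuronal marker genes, 14 passed the filter, and each of these was well above background in both channels on all 3 arrays of 48 h. The sensory neuron factor gene Pou4f1 and the neuronal splicing factor gene Rbfox3 did not pass. Of 21 glial markers on the array 8 passed, and Gfap, S100b and Mbp were among those that did not. Of the 8, 0 were called higher and 4 lower, with a median of -0.10 that was 0.05 with median centring. Leukocyte markers passed in 5 of 13 cases, none of them called at 48 h (their median was -0.03, and 0.32 with median centring), and Cd3e and Itgam were among those that did not pass. Fibroblast markers passed in 9 of 14 cases, with 5 called higher and 3 lower, and endothelial and mural markers in 5 of 10 cases, with 3 higher and 0 lower. S100a4, a calcium-binding protein gene of motile cells and a member of the fibroblast list, rose to 1.29 ± 0.08 (SD, n = 3). In that list Col3a1, Dcn and Lum did not pass the filter, whereas Col1a2 (0.41), Sparc (0.62), Vim (0.28) and Fn1, which fell, did.

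**Figure D1:**
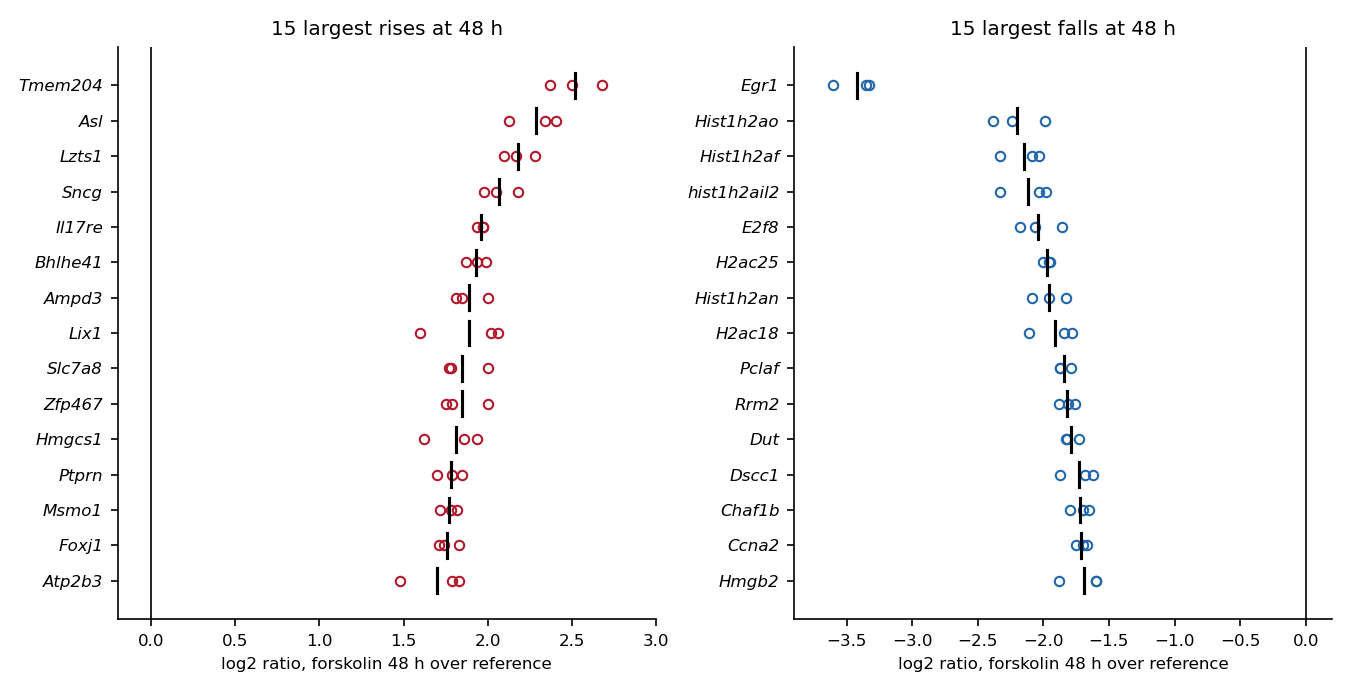
Log2 ratio of forskolin over reference at 48 h for the 15 genes with the largest rises (left) and the 15 with the largest falls (right). Open circles are the 3 arrays, and black bars are their means. The rises run from 1.70 to 2.52 and the falls from -1.69 to -3.42. The genes were chosen among called genes with the same sign on all 3 arrays, so by that choice no array crosses 0.

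The 15 largest rises came from genes of several kinds, and 3 of them belong to cholesterol synthesis or the secretory granule. Tmem204, which encodes a membrane protein of cell junctions, read 2.68, 2.50 and 2.37 on the 3 arrays. All 3 were far above 0, and the gene rose 5.74-fold (2.52 ± 0.16, SD, n = 3; adjusted p = 1.2e-11). Its probe lies at chr10:14304582-14304641 of rat build rn3. Asl, the argininosuccinate lyase of the urea cycle that releases arginine, read 2.41, 2.34 and 2.13 and rose 4.90-fold (2.29 ± 0.15). Lzts1, a leucine-zipper protein gene described as a tumour suppressor, rose to 2.18 ± 0.09. Sncg, the synuclein of peripheral neurons, read 2.18, 2.05 and 1.98 and rose 4.21-fold (2.07 ± 0.10, adjusted p = 2.7e-12), with its probe at chr16:10026222-10026281. The arrays of each of these genes differed by far less than their distance from 0, which the choice among called genes of the same sign favours.

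The interleukin-17 receptor family gene Il17re rose to 1.96 ± 0.02 and the clock repressor gene Bhlhe41 to 1.93 ± 0.06. Ampd3, an AMP deaminase, was at 1.89 ± 0.10, with the reference well above background on 2 of the 3 arrays. Lix1 was at 1.89 ± 0.25, with array 1 (1.60) below the other 2 (2.06 and 2.02). The neutral amino acid transporter gene Slc7a8 and the zinc-finger gene Zfp467 were both at 1.85, with SDs of 0.13 and 0.14. Foxj1, the master factor of motile cilia, rose to 1.76 ± 0.06. Atp2b3, a plasma membrane calcium pump gene of neurons, was at 1.70 ± 0.19 by its brightest probe, but its other probe read 0.02, so that its rise rests on 1 probe.

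Egr1, an immediate-early zinc-finger gene, had the largest fall. It read -3.60, -3.35 and -3.33 and fell 10.7-fold (-3.42 ± 0.15, adjusted p = 6.9e-14). All 3 arrays lay below its values at 24 h, which were -2.08, -2.11 and -2.11, and the gene was already at -1.70 after 2 h and -3.01 after 4 h. The other 14 of the largest falls were genes of DNA replication, chromatin assembly and cell division.

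Genes of the cell cycle were lower as a block. Of 61 tested genes of mitosis and the spindle, 57 were called lower, 0 higher and 4 neither way, with a median of -1.16 against -0.02 for all genes, and 36 of them were called and at least 2-fold lower. Of 54 tested genes of DNA replication and S phase, 50 were called lower, 0 higher and 4 neither way, with a median of -0.86, and 23 were called and at least 2-fold lower. Of 19 tested replication-dependent histone genes, 15 were called lower and 0 higher, with a median of -0.91. In RNA of a whole culture, fewer dividing cells and less RNA per dividing cell cannot be told apart.

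Within the mitosis list the falls ran from cyclins to kinetochore and spindle genes. Ccna2, the cyclin of S phase and G2, read -1.75, -1.70 and -1.67 and fell 3.26-fold (-1.71 ± 0.04, adjusted p = 1.9e-12). Ccnb1, the cyclin that starts mitosis, read -1.46, -1.58 and -1.60 (mean -1.55 ± 0.08), and its kinase Cdk1 read -1.19, -1.24 and -1.20 (mean -1.21 ± 0.03). The 3 arrays of each of these genes stood close together and far from 0. The kinetochore gene Spc24 fell to -1.65 ± 0.03, the checkpoint kinase gene Bub1b to -1.65 ± 0.06 and the securin gene Pttg1 to -1.61 ± 0.07. Pbk (-1.63), a mitotic kinase gene, and the condensin gene Ncapg2 (-1.61) fell as far. Plk1, a kinase of spindle and centrosome, was at -1.32 ± 0.05, Foxm1, the factor that drives genes of G2 and mitosis, at -1.38 ± 0.10, and Aspm, a gene of the spindle poles, at -1.48 ± 0.06. Mki67, the gene of a widely used proliferation antigen, fell less, to -0.56 ± 0.13. Hmmr (0.06), Ckap2l (0.08), Cenpf (-0.07, and 0.33 with median centring) and Cdc25b (0.11) did not pass the test, and Ckap2l was not well above background on any 48 h array. Cdc25b was called higher in 6 other settings, among them median centring (0.22, adjusted p = 0.00083) and a fit with the replicate number, which is also the slide, as a replicate block (0.11, adjusted p = 0.043). Ccnb1 and Ccna2 each have another probe, at -0.61 and -0.83, so probes of a gene shared the direction but not the size.

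The replication list ranged from enzymes of DNA precursors to the helicase and the polymerases. Rrm2, the ribonucleotide reductase subunit made in S phase, read -1.81, -1.88 and -1.76 and fell 3.52-fold (-1.82 ± 0.06, adjusted p = 7.9e-13). Dut, which keeps uracil out of DNA, read -1.82, -1.83 and -1.73 (mean -1.79 ± 0.06). No array of either gene came near 0. Tyms (-1.25 ± 0.08), the thymidylate synthase, fell too. Among the subunits of the replicative helicase, Mcm3 was at -1.58 ± 0.04, Mcm5 at -1.13 ± 0.17 and Mcm7 at -0.97 ± 0.13. Pcna, the sliding clamp of the polymerases, read -1.08, -1.30 and -1.53 (mean -1.30 ± 0.22). Its 3 arrays were spread more widely than those of Mcm3. The cohesion factor gene Dscc1 (-1.73 ± 0.13), the chromatin assembly gene Chaf1b (-1.72 ± 0.08) and Pclaf, a Pcna-binding factor (-1.84 ± 0.05), were among the 15 largest falls. Hmgb2, a chromatin protein gene of dividing cells, fell to -1.69 ± 0.16. The origin recognition genes Orc3 (-0.07) and Orc5 (0.09) and the polymerase genes Pola1 (-0.05, and 0.35 with median centring) and Pola2 (-0.11) did not pass the test. Pola2 was called lower without array 1 (-0.20, adjusted p = 0.029), without background correction (-0.16), with array weights (-0.15) and with the processed signals (-0.51).

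Genes of the G1 phase were mixed: of 29 tested, 13 were called lower and 7 higher, with a median of -0.09. The shares over all genes were 30.3% lower and 26.9% higher. E2f8, a repressor made in S phase, was at -2.04 ± 0.16 by its brightest probe and at -0.42 by the other. Ccne1, the cyclin of entry into S phase, fell to -1.21 ± 0.04, and its kinase Cdk2 (-0.97 ± 0.10) and the factor E2f1 (-0.97 ± 0.13) fell with it. The D-type cyclin gene Ccnd1 read -0.40, 0.07 and 0.06 and did not pass the test, although it was called lower with median centring (-0.89). Its arrays lay on both sides of 0. The inhibitor gene Cdkn1b read 0.05, -0.15 and -0.03 and was not called (called lower with median centring, at -0.61), and Cdkn1a fell to -0.36 ± 0.11, so neither of these inhibitors of cyclin-dependent kinases rose. The antiproliferative genes Tob1 (1.14 ± 0.11) and Btg2 (1.01 ± 0.06) rose.

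The probes of 5 strongly lowered histone H2A genes are shown because they share a run of sequence. They are printed 5′ to 3′ from the scanner files, with build rn3 positions, and capitals mark the 14 bases that all 5 probes share.
Hist1h2ao, chr17:50345199-50345258, minus strand: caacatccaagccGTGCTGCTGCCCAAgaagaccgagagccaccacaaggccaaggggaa
Hist1h2af, chr17:48516845-48516904, plus strand: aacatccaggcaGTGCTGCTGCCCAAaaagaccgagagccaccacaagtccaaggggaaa
hist1h2ail2, chr17:50390646-50390705, plus strand: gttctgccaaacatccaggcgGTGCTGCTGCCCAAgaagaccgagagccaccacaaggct
Hist1h2an, chr17:50355937-50355996, plus strand: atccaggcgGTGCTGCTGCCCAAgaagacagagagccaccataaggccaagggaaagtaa
H2ac18, chr2:191007772-191007831, minus strand: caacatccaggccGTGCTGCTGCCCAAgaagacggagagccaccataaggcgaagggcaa
Aligned on the shared run, any 2 of these probes were 87.7% to 93.8% alike where they overlap. Transcripts of these histone H2A genes, which form the core of the nucleosome, may therefore bind each other's probes, and the 5 values are not 5 independent genes. Hist1h2ao read -2.38, -2.24 and -1.99 (mean -2.20 ± 0.20) and H2ac18 read -2.11, -1.84 and -1.78 (mean -1.91 ± 0.18). In both, array 1 was the lowest. Histone H4 genes fell less: Hist1h4m was at -1.63 and Hist1h4b at -1.60. H2ac25, another H2A gene whose probe is not printed, was at -1.97 ± 0.03, lower than Hist1h2an and H2ac18. The median of the histone list was -0.97 at 24 h and -0.91 at 48 h, and 3 of 19 were called higher and 1 lower at 48 h than at 24 h.

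Promoters of the lowered cell-cycle genes are shown because 3 short motifs recur in them. The CCAAT box (CCAAT) is bound by NF-Y, the cell-cycle homology region or CHR (TTTGAA) by the DREAM and MuvB complexes, and the E2F site (searched here as TTTCCCGC, TTTCGCGC or TTTGGCGC) by E2F factors. Each motif was searched on both strands from 250 bases before to 50 bases after the start of transcription, in RefSeq promoters of build GRCr8, which matched 7651 of the 17802 genes by symbol. Printed below are 150 bases before to 30 after the start, 5′ to 3′ on the gene's strand, with matches of the CCAAT box and CHR (or, for Mcm3 and Mcm5, of the CCAAT box and E2F) in capitals. No 2 capital stretches overlap.
Pttg1, chr10:28406297-28406476, minus strand: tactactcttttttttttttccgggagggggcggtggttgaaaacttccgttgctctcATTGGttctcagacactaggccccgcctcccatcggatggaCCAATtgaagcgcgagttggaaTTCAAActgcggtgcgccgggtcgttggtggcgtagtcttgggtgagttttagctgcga
Cks2, chr17:13727490-13727669, minus strand: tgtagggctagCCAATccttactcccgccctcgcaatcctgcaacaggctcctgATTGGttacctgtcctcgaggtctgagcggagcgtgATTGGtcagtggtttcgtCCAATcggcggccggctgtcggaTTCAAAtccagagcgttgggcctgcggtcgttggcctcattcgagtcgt
Aspm, chr13:53625434-53625613, plus strand: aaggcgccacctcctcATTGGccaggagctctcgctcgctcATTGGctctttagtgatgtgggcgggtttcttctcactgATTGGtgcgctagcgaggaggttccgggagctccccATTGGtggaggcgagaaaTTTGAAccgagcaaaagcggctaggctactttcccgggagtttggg
Mcm3, chr9:30733717-30733896, minus strand: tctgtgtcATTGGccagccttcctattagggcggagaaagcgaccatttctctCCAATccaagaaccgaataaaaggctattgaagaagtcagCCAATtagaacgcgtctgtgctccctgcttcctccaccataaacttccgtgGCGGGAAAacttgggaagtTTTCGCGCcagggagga
Mcm5, chr19:13488663-13488842, plus strand: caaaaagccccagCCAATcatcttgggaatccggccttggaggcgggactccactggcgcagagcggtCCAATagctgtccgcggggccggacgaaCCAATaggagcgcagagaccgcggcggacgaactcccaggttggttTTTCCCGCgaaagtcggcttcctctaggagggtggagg
In the promoters of Cks2 and Aspm, 4 CCAAT boxes stand upstream of a CHR that begins 19 and 16 bases before the start. Cks2, a subunit of the cyclin-dependent kinases, was at -1.58 ± 0.09.

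Of the promoters of genes at least 2-fold lower, 61.1% (77 of 126) held a CCAAT box, against 37.9% of all 7651. The CHR stood in 31% of them against 11.7% of all, both motifs together in 23.8% against 4.80%, and an E2F site in 16.7% against 3.70%. Promoters of genes at least 2-fold higher were near the whole for each: 36.8% (43 of 117) held a CCAAT box, 11.1% a CHR and 2.56% an E2F site. In the mitosis list, 71.7% of 53 promoters held a CHR and 54.7% both the CHR and the CCAAT box. In the replication list, 45.5% of 44 promoters held an E2F site. The CHR letters lay within 50 bases of the start in 27 of 46 matches of the mitosis list. These shares describe letters in a window and show no binding.

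**Figure D2:**
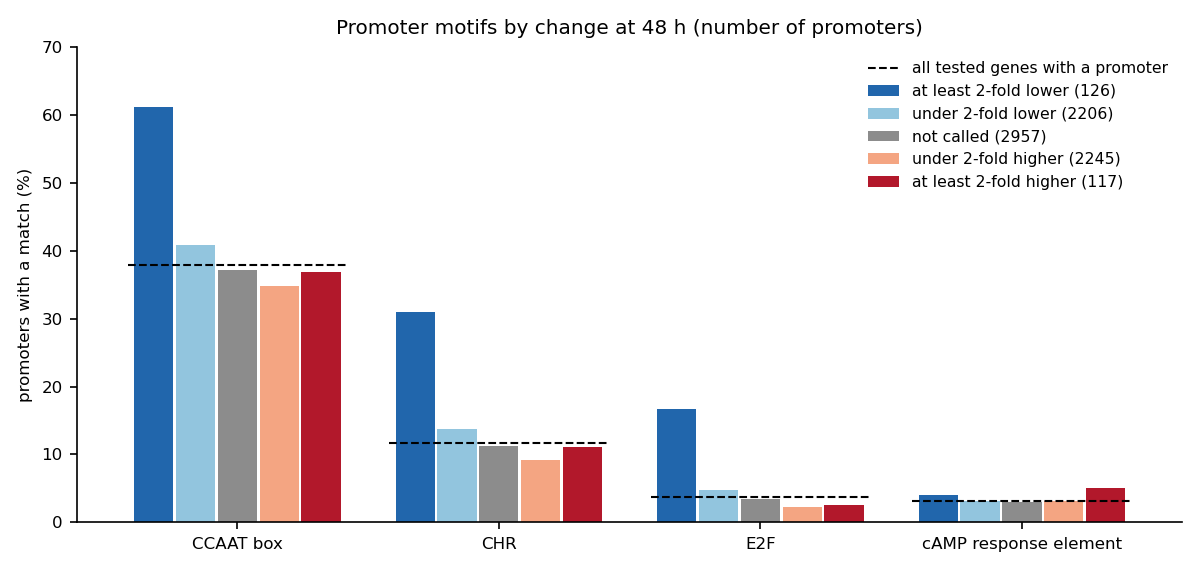
Share of RefSeq promoters that hold each motif, in percent, for genes grouped by their change at 48 h; the number of promoters per group is in the legend, and dashed lines give the share over all tested genes with a promoter. The darkest blue bars (at least 2-fold lower) stand above the dashed line for the CCAAT box (61.1%), the CHR (31%) and E2F (16.7%).

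**Figure D3:**
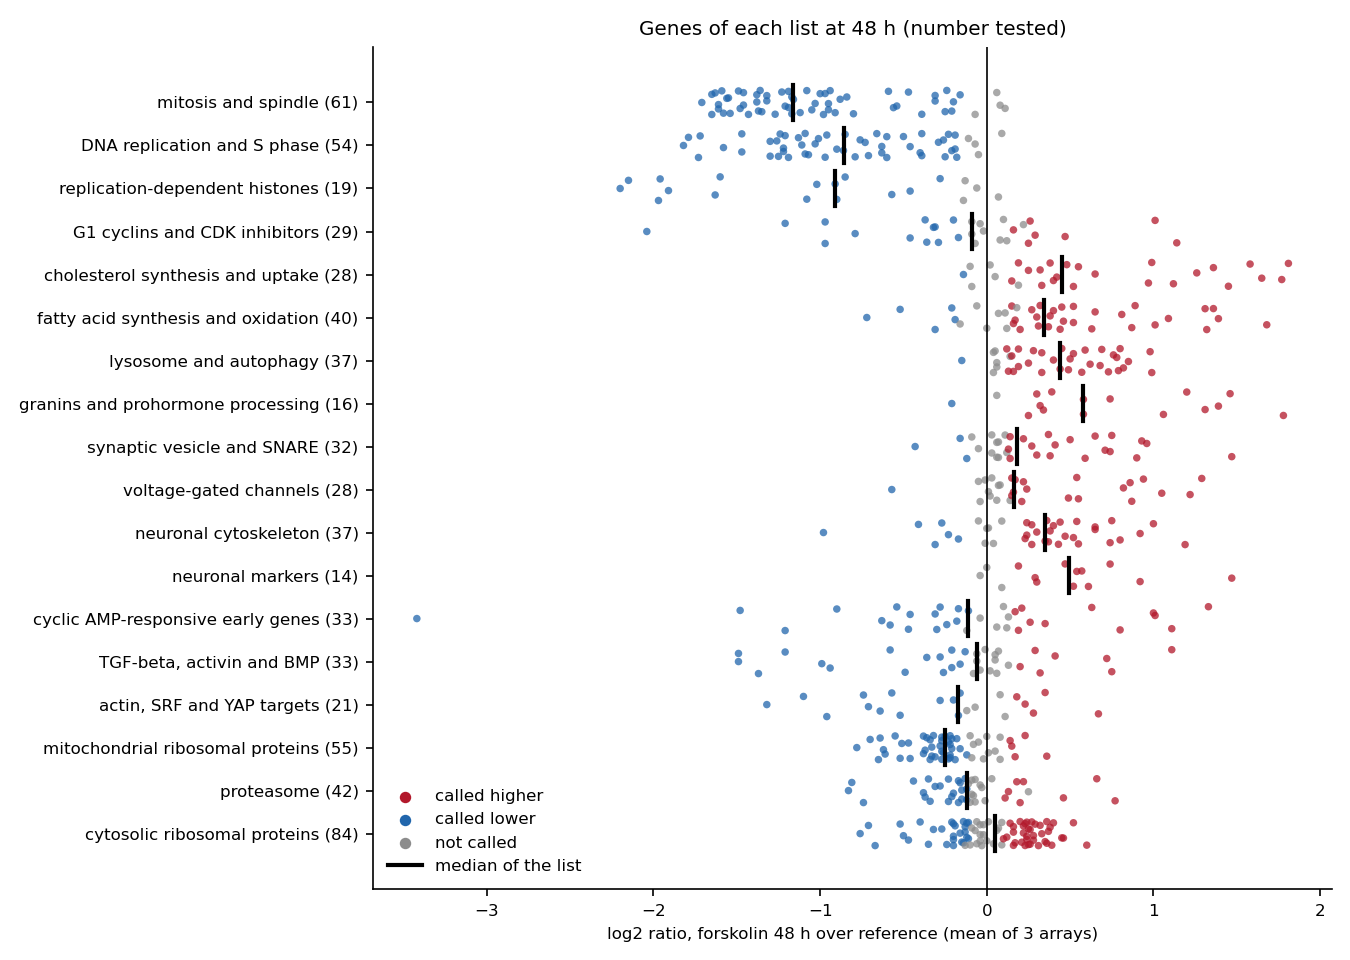
Log2 ratio at 48 h of each tested gene (point, mean of 3 arrays) in 18 gene lists, with the number of genes tested in parentheses; red points were called higher, blue points lower and grey points neither, and black bars mark the list medians. Mitosis and replication lie almost wholly below 0, and cholesterol synthesis, lysosome and granins almost wholly above it.

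Genes of cholesterol synthesis stood on the other side. Of 28 tested genes of cholesterol synthesis and uptake, 22 were called higher, 1 lower and 5 neither way, with a median of 0.45. These genes answer to the transcription factor SREBP-2, which is released from the endoplasmic reticulum when sterol runs low. Hmgcs1, which makes HMG-CoA, read 1.62, 1.86 and 1.94 and rose 3.50-fold (1.81 ± 0.17, adjusted p = 6.9e-12), and its other probe read 0.65. Fdps, the farnesyl diphosphate synthase, read 1.87, 1.60 and 1.48 (mean 1.65 ± 0.20). Array 1 was the lowest of the 3 for Hmgcs1 and the highest for Fdps, and all arrays of both were above 1. The kinase gene Pmvk rose to 1.45 ± 0.05. Downstream, Fdft1 (1.26 ± 0.20), Sqle (1.12 ± 0.01), Cyp51 (1.36 ± 0.10) and the methylsterol oxidase gene Msmo1 (1.77 ± 0.05) rose. Insig1, a target and inhibitor of SREBP processing, rose to 1.58 ± 0.07. Srebf2, the gene of SREBP-2 itself, read 0.02, 0.05 and -0.02 and was not called, although it was with median centring (0.41). Hsd17b7 was the member called lower, at -0.14, a call that was lost without any single one of the 3 arrays (adjusted p from 0.073 to 0.12) and in 4 other settings, median centring among them (-0.07). Apart from Pmvk (0.60 above 24 h) and Tm7sf2, most of these genes stood at 48 h where they had been at 24 h: the list's median was 0.43 at 24 h, and 4 of 28 were called higher and 1 lower between these times.

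Promoters of 2 of these genes are shown with their CCAAT boxes in capitals, since NF-Y is a known partner of SREBP at sterol genes (RefSeq, build GRCr8, 150 bases before to 30 after the start).
Hmgcs1, chr2:53382154-53382333, plus strand: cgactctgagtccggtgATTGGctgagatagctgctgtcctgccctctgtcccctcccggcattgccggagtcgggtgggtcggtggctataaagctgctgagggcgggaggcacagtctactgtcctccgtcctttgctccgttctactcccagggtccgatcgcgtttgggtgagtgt
Fdps, chr2:176804787-176804966, minus strand: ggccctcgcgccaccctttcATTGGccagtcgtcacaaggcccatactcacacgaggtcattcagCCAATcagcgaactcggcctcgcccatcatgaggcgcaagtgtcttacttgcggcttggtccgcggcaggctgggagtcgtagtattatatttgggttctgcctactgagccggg
A CCAAT box stood in 72.7% (16 of 22) of the promoters of the list, and the full cyclic AMP response element (TGACGTCA) in 0 of 22, against 3.18% of all promoters.

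Fatty acid genes rose with them, although less evenly. Of 40 tested, 28 were called higher and 5 lower, with a median of 0.35, which was 0.00 with median centring in place of loess. Scd2, a stearoyl-CoA desaturase, read 1.65, 1.74 and 1.66 (mean 1.68 ± 0.05), and Scd, its relative, was at 1.32 ± 0.19. All arrays of both were above 1. Ech1, an enzyme of fatty acid oxidation, rose to 1.39 ± 0.03. Fads3, a desaturase-like gene (1.36 ± 0.02), and Acox2, a peroxisomal oxidase of branched chains (1.31 ± 0.05, its reference above background on 2 of 3 arrays), were high too, but both had come down from 24 h (48 h minus 24 h -0.81 and -0.83). The lipogenic factor gene Srebf1 was at 1.01 ± 0.11, with its other probes from 0.12 to 1.41. Fabp5, a fatty acid carrier, fell to -0.72 ± 0.09.

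Lysosomal genes rose broadly and by less than 2-fold. Of 37 tested genes of lysosome and autophagy, 30 were called higher, 1 lower and 6 neither way, with a median of 0.44, which stayed above 0 (0.14) with median centring. None was called and at least 2-fold higher. Ctsd, the aspartic protease of lysosomes, read 0.96, 1.03 and 0.99 (mean 0.99 ± 0.03), and Tpp1, a tripeptidyl peptidase, was at 0.98 ± 0.14. The sialidase gene Neu1 (0.82 ± 0.16), the membrane protein gene Lamp2 (0.78 ± 0.08) and the autophagy receptor gene Sqstm1 (0.85 ± 0.34) followed. Sqstm1 read 1.24, 0.72 and 0.59, with array 1 well above the others. Tfeb, the factor that drives lysosomal genes, rose to 0.69 ± 0.07, and Lamp1 was not called (0.04 ± 0.07, and -0.52 with median centring). The promoter of Ctsd is shown because the E-box that TFEB binds in lysosomal promoters (searched as GTCACGTG, on both strands) stands next to its start, in capitals (RefSeq, build GRCr8).
Ctsd, chr1:206968792-206968971, minus strand: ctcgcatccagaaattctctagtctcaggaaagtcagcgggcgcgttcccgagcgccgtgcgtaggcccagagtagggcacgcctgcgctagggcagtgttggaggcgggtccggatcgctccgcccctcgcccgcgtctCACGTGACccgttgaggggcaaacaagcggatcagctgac
This E-box stood in 17.2% (5 of 29) of the promoters of the list and in 3.76% of all.

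Genes of the secretory granule were mostly higher. Of 16 tested genes of granins and prohormone processing, 14 were called higher and 1 lower, with a median of 0.58 (0.10 with median centring), and 6 were called and at least 2-fold higher. Ptprn, a membrane protein of dense-core granules, read 1.79, 1.85 and 1.70 and rose 3.43-fold (1.78 ± 0.07, adjusted p = 7.9e-11). Chgb, the granin that packs peptides into these granules, read 1.42, 1.53 and 1.42 and rose 2.74-fold (1.46 ± 0.06, adjusted p = 4.1e-12). Its relatives Chga (1.39 ± 0.04) and Scg2 (1.31 ± 0.29) rose as well, and the arrays of Scg2 ran from 1.01 to 1.58. Resp18, a granule protein gene of endocrine cells, was at 1.20 ± 0.06. Pam, the amidating enzyme of neuropeptides, rose to 0.74 ± 0.17, and Scg3, a granin-binding protein gene, to 0.58 ± 0.06, a direction that was lost with median centring (-0.12). The same held for Vgf, a neuropeptide precursor gene (0.39 ± 0.01, and -0.66 with median centring). The convertase gene Pcsk2 was not called (0.06), and Ptprn2 fell to -0.21, a call lost without array 2 (adjusted p = 0.091) or array 3 (0.098) and a direction lost with median centring (0.08). The promoter of Scg2 is shown because it holds the full cyclic AMP response element, in capitals (RefSeq, build GRCr8).
Scg2, chr9:88256837-88257016, minus strand: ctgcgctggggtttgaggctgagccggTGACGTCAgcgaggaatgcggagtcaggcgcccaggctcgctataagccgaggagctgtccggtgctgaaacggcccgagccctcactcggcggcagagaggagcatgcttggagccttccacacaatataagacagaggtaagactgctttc
The full element was present in 5.13% of promoters of genes at least 2-fold higher and in 3.97% of those at least 2-fold lower, against 3.18% of all.

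Genes of transmitter synthesis and transport were mixed: of 13 tested, 4 were called higher and 5 lower, against 26.9% and 30.3% of all genes. So as a list they stood out little from the whole. Their median was -0.12, and 0.24 with median centring. Th, the rate-limiting tyrosine hydroxylase, read 1.34, 1.38 and 1.42 and rose 2.60-fold (1.38 ± 0.04, adjusted p = 7.4e-12), and Dbh, which makes noradrenaline, was at 1.06 ± 0.13. All arrays of both were above 0.9. Ddc, which lies between these steps, was not well above background in the forskolin channel on any 48 h array and was not called (-0.12). Its call depended on the setting: it was called lower without array 1 (-0.18, adjusted p = 0.022), without background correction (-0.14) and with array weights (-0.18), and called higher with median centring (0.31).

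Genes of the axon and the synapse were mostly higher. Of 37 tested genes of the neuronal cytoskeleton, 25 were called higher and 6 lower, with a median of 0.35 that was -0.08 with median centring. Mapt, the microtubule protein tau, read 0.96, 1.32 and 1.29 (mean 1.19 ± 0.20), and the kinesin gene Kif3c was at 1.00 ± 0.13. Tubb3, the neuronal tubulin, read 0.90, 0.69 and 0.62 (mean 0.74 ± 0.15), and Prph, the intermediate filament of peripheral neurons, was at 0.92 ± 0.02. With median centring Tubb3 read 0.04 and Prph -0.15, so their rise against the reference rests on the loess step. Stmn1, a microtubule-destabilising gene of dividing cells, fell to -0.98 ± 0.05. Of 32 tested genes of synaptic vesicles and SNAREs, 19 were called higher and 3 lower, with a median of 0.18. Snap25, the SNARE of vesicle release, read 1.78, 1.43 and 1.20 (mean 1.47 ± 0.29, adjusted p = 4e-08), and the vesicle protein gene Syp was at 0.90 ± 0.08. The arrays of Snap25 were spread but all far above 0. The neurexin gene Nrxn2 (0.96 ± 0.09) and the synapsin gene Syn2 (0.75 ± 0.13) rose too, whereas Syn1 (0.03) and Stx1a (0.07) were not called.

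Among 28 tested voltage-gated channel genes, 17 were called higher and 1 lower, with a median of 0.17, and 0.42 with median centring. Cacna1b, the pore of the N-type calcium channel of nerve terminals, read 1.23, 1.30 and 1.36 (mean 1.29 ± 0.07). Cacnb1, an auxiliary calcium channel subunit, was at 1.22 ± 0.03, and Scn9a, a sodium channel gene of sensory neurons, at 1.05 ± 0.15. All arrays of these 3 genes were above 0.8. Cacna1d, an L-type channel, was at 0.94 ± 0.10 by its brightest probe and at -0.03 by the other. Hcn3, of the pacemaker channels, fell to -0.57 ± 0.10. Genes that mark sensory neurons moved less: 9 of 19 were called higher and 2 lower, with a median of 0.08 and none at least 2-fold. In axon guidance, 13 of 28 were called higher and 3 lower, against 26.9% and 30.3% of all genes. The secreted repellent gene Slit3 fell to -1.47 ± 0.02.

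Most genes known to respond early to cyclic AMP were back near the reference or below it. Of 33 tested, 11 were called higher, 16 lower and 6 neither way at 48 h, beside 26.9% higher and 30.3% lower over all genes. Their median was -0.11 at 48 h, against 0.76 at 2 h and 0.25 at 4 h. Rgs2, a brake on G protein signalling, read 2.91, 2.75 and 2.68 at 2 h and 0.16, 0.20 and 0.22 at 48 h. Nr4a1, an orphan nuclear receptor gene, read 2.28, 2.26 and 2.10 at 2 h and -0.43, -0.46 and -0.50 at 48 h. The early and late arrays of these genes did not overlap, and Nr4a1 had passed below the reference. Rgs2 did so with median centring (-0.35). Nr4a3 was not called at 48 h (0.06 ± 0.05, and -0.19 with median centring). Sik1, a kinase that restrains CREB coactivators, stayed up at 1.33 ± 0.08, as did Crem, whose short form represses CREB targets, at 0.63 ± 0.07. The early response gene Ier2 read -1.10, -1.62 and -1.73 (mean -1.48 ± 0.34), and Atf3, a stress factor gene, was at -1.21 ± 0.08. Klf6 fell to -0.90 ± 0.16 by its brightest probe, with the other at -0.08. The core of the cyclic AMP response element (TGACG, which the full element contains) stood in 66.7% (16 of 24) of the promoters of these genes, against 32.5% of all. The core is not particular to them: it stood in 80% (8 of 10) of housekeeping promoters and 71.4% (10 of 14) of granin promoters. All other lists had lower shares than the early genes. The full element stood in 16.7% (4 of 24) of promoters of the early genes, against 3.18% of all.

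The components of the cyclic AMP pathway itself changed both ways, with 15 of 31 called higher and 8 lower, against 26.9% and 30.3% of all genes. Adcy6, an adenylyl cyclase that protein kinase A inhibits, read 1.20, 1.20 and 1.04 (mean 1.15 ± 0.09). Akap8, a nuclear anchor of protein kinase A, read -1.25, -1.11 and -1.03 (mean -1.13 ± 0.11). Creb1, the gene of CREB, fell to -0.43 ± 0.01, and Prkar2b, a regulatory subunit of the kinase, to -0.38 ± 0.03. Among phosphodiesterase and RGS genes, 11 of 19 were called higher and 3 lower. Rgs4 was at 1.01 ± 0.07, and Pde4d, which degrades cyclic AMP, was at 1.00 ± 0.32 by its brightest probe but between -0.02 and 0.15 by its other probes.

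The genes of the inhibitors of differentiation, Id1 to Id4, are BMP targets whose proteins block neuronal bHLH factors, and all 4 were lower. Id2 read -1.39, -1.62 and -1.47, Id3 -1.37, -1.40 and -1.32, and Id4 -1.51, -1.52 and -1.44 at 48 h. At 2 h all 4 had been above the reference, between 1.35 for Id3 and 2.07 for Id4. The TGF-beta inhibitor gene Smad7 (-1.21 ± 0.19) and Skil (-0.99 ± 0.09, with the other probe at -0.09) fell too. In the list of TGF-beta, activin and BMP genes, 15 of 33 were called lower and 7 higher, with a median of -0.06. The shares over all genes were 30.3% lower and 26.9% higher. Among genes of actin and its factor SRF, 12 of 21 were called lower and 5 higher. Actb, the cytoplasmic actin often used as a control gene, read -1.08, -1.17 and -1.06 (mean -1.10 ± 0.06), and the adhesion gene Vcl was at -0.96 ± 0.06. Srf was at -1.32 ± 0.07 by its brightest probe, with its others from -1.25 to 0.60. Gapdh, another control gene, was at 0.26 ± 0.05 but at -0.72 with median centring.

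Other groups were less uniform, and their counts stand beside 26.9% called higher and 30.3% called lower over all genes. Among insulin, IGF and FoxO genes, 15 of 26 were called higher and 7 lower, led by the IGF-binding protein genes Igfbp4 (1.34 ± 0.06) and Igfbp6 (1.30 ± 0.10) and by Pik3ip1, an inhibitor of PI3 kinase (1.03 ± 0.14). In arginine and polyamine metabolism 10 of 25 rose and 10 fell, and Ass1, which acts just before Asl, was at 1.10 ± 0.13. Among amino acid response genes, 16 of 36 rose and 8 fell, with a median of 0.09 that was -0.13 with median centring, and with Atf5 at 1.60 ± 0.04 and the arginine transporter gene Slc7a3 at 1.36 ± 0.02. Of 55 tested mitochondrial ribosomal protein genes, 40 were called lower and 5 higher, all by less than 2-fold, with a median of -0.25. Of 42 proteasome genes 22 were called lower and 8 higher, with a median of -0.12. Cytosolic ribosomal protein genes, 84 tested, had a median of 0.05 that was -0.86 with median centring. Fn1, the matrix protein fibronectin, fell to -1.28 ± 0.11, with its other probe at -0.45, and Itga1, an integrin for collagen, rose to 1.27 ± 0.15.

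The change from 24 h to 48 h compares arrays of the same dye layout, and 2633 genes (14.8% of those tested) were called, 1424 higher (8%) and 1209 lower (6.79%) at 48 h. On every slide the 4 h array had position 2, the 24 h array position 3 and the 48 h array position 4. Time and position therefore cannot be told apart in the differences between times. With median centring the calls were 616 higher and 679 lower, and array weights gave 4042 calls in all. Of the 2633, 19 (0.107%) were higher and 8 (0.0449%) lower by 2-fold or more. The comparisons of 48 h with 24 h and with the reference share the 48 h arrays, so their values are set side by side and not counted as separate evidence.

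Neuronal markers went up late. Of the 14 tested, 12 were called higher and 0 lower at 48 h than at 24 h, against 8% of all genes called higher. The list's median was 0.05 at 24 h and 0.49 at 48 h (-0.01 with median centring), and the median difference was 0.40 against 0.00 for all genes. The difference between these times does not rest on the loess step: its median over the list was 0.35 to 0.48 across all settings tried. Stmn2, a stathmin of growth cones, read -0.40, -0.38 and -0.22 at 24 h and 0.49, 0.39 and 0.53 at 48 h (mean -0.07 with median centring). Gap43, the growth-associated protein of axons, read -0.11, -0.29 and -0.30 at 24 h and 0.42, 0.18 and 0.26 at 48 h (mean -0.54 with median centring). Neither gene's arrays overlapped between the times. The sensory neuron factor Isl1 and the neurofilament gene Nefm, at -0.52 and -0.43 at 24 h, were at -0.04 and 0.00 at 48 h, neither of them called against the reference. Snap25 had been at 0.55 at 24 h (48 h minus 24 h 0.92, adjusted p = 0.00096), and Map2 moved least (0.02). Voltage-gated channel genes were called higher in 11 of 28 cases and lower in 0 over the same interval, and genes of the neuronal cytoskeleton in 12 and 1 of 37.

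**Figure D4:**
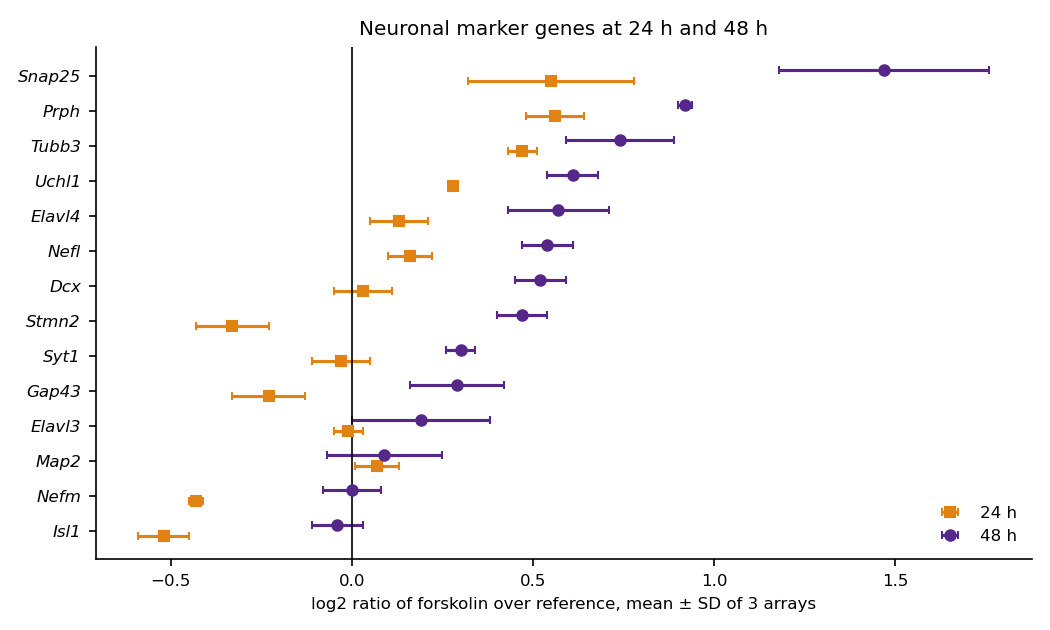
Log2 ratio of forskolin over reference for 14 neuronal marker genes at 24 h (orange squares) and 48 h (violet circles); points are means of 3 arrays and bars are their SD. Of the 14 genes, 12 were called higher at 48 h than at 24 h, Snap25 with the largest difference (0.92).

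Among single genes, the largest rise after 24 h was that of Angpt2, a ligand of the Tie2 receptor, which read -1.04, -0.99 and -0.85 at 24 h and 0.62, 0.66 and 0.57 at 48 h. The arrays of the 2 times lay on opposite sides of 0 (difference 1.58, adjusted p = 1.9e-08). Chgb read 0.22, 0.24 and 0.29 at 24 h, so most of its rise came later (difference 1.21). The TGF-beta-binding gene Ltbp1 (1.31), Rufy3, an adaptor of growing axons (1.28), and the calmodulin-binding gene Pcp4 (1.27) were next. Itpka, an inositol trisphosphate kinase of dendrites (1.22), the sterol reductase gene Tm7sf2 (1.20) and the phosphatase gene Ptprr (1.19) completed the 8. Itpka and Ptprr rose only back to the reference: they were at -0.11 and 0.08 at 48 h (Ptprr at -0.46 with median centring), neither of them called. Itpka was called lower without array 2 (-0.15, adjusted p = 0.046), with the replicate block (-0.11, adjusted p = 0.043), with both channels above background (-0.11) and with median centring (-0.48). Ptprr was called higher with a normexp offset of 0 (0.11) and with the processed signals (0.12).

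The largest fall after 24 h was that of Fst, the gene of follistatin, which binds activin. It read 3.62, 3.64 and 3.49 at 24 h and 1.05, 1.20 and 1.08 at 48 h (difference -2.47, adjusted p = 6.3e-11). Vip, the vasoactive intestinal peptide gene and a known cyclic AMP target, read 3.14, 3.04 and 3.03 at 24 h and 1.27, 1.37 and 1.32 at 48 h (difference -1.75). In both genes all arrays of 48 h lay below all of 24 h and above 0, and both were still at least 2-fold above the reference. Id1 crossed the reference, from 0.18 at 24 h to -0.94 ± 0.02 at 48 h (difference -1.12). Odc1, the first enzyme of polyamine synthesis, dropped by 1.09, the stress phosphatase subunit gene Ppp1r15a by 1.04, the metalloreductase gene Steap1 by 1.01 and the nuclear lamin gene Lmna by 0.95. Cell-cycle falls deepened over the same interval: 37 of 61 mitosis genes and 29 of 54 replication genes were called lower at 48 h than at 24 h, and 0 of either higher. Spc24 fell by 0.81 and Tyms by 0.81, and the ubiquitin-conjugating enzyme gene Ube2c by 0.74. In the actin list, 11 of 21 were called lower and 1 higher. Of all genes, 6.79% were called lower and 8% higher over this interval.

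**Figure D5:**
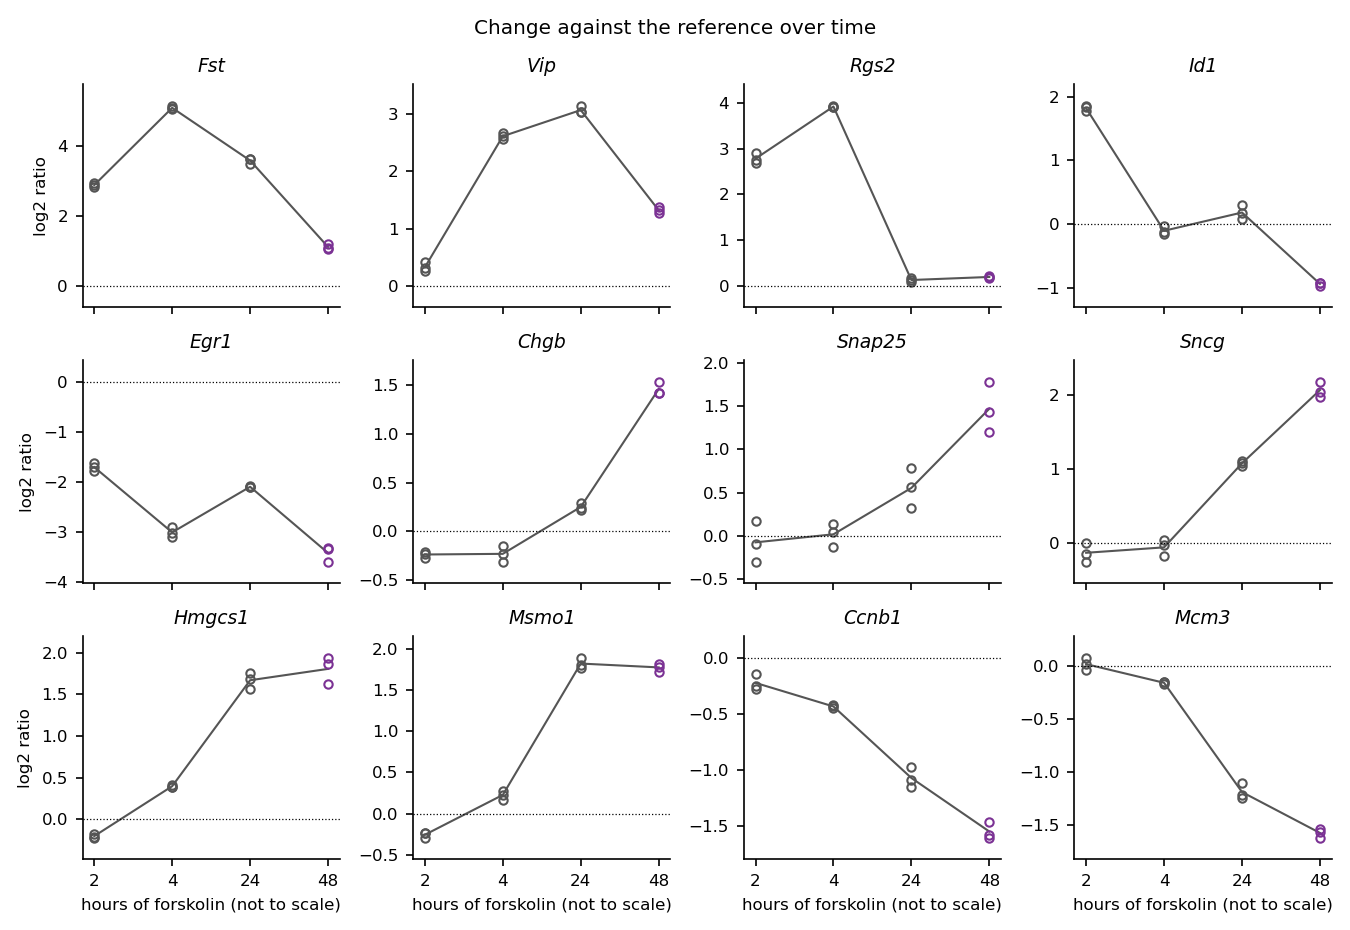
Log2 ratio of forskolin over reference after 2, 4, 24 and 48 h for 12 genes; circles are arrays (violet at 48 h), lines join the means, and each panel has its own vertical scale. Fst, Vip, Rgs2 and Id1 are below their highest time point at 48 h, Chgb, Snap25 and Sncg are highest at 48 h, Hmgcs1 and Msmo1 hold their 24 h level, and Ccnb1 and Mcm3 are lowest at 48 h.

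Between 4 h and 48 h, 8392 genes (47.1%) were called, 4417 higher (24.8%) and 3975 lower (22.3%) at 48 h, against 2979 higher and 3983 lower with median centring. Of the 8392, 420 (2.36%) were higher and 239 (1.34%) lower by 2-fold or more. The 8 largest falls were Fst (-3.98), Rgs2 (-3.73), Id4 (-3.70), Nr4a3 (-3.24), Nr4a1 (-3.01), Tac1 (-2.75), Crem (-2.57) and Sik1 (-2.14), which had risen in the first hours. Tac1, the substance P precursor gene of sensory neurons, was still at 0.52 ± 0.02 at 48 h. Of the 8 largest rises, 7 were genes that had first dipped. P2ry6, a receptor for UDP, read -1.38, -1.40 and -1.39 at 4 h and 1.27, 1.40 and 1.48 at 48 h (difference 2.77, adjusted p = 4.3e-12). Enc1, an actin-binding gene of neurons, was at -1.59 at 4 h and 0.86 ± 0.19 at 48 h, the latter -0.02 with median centring. Atp2b3 (2.58), Il17re (2.55), Lzts1 (2.53), Zfp467 (2.49), Scd2 (2.40) and Tmem204 (2.37) made up the rest. Tmem204 alone of the 8 had been at or above the reference at 4 h (0.15).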

How the data were processed

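RNA of F11 cells was hybridised to 12 Agilent two-colour rat arrays, one for each sample. The deposited files hold scanner intensities of each spot and its local background, as Agilent Feature Extraction 9.5 measured them (per the file headers, whose probe positions are of rat build rn3). The authors also deposited log2 ratios, made with limma per the submitters' processing notes. These ran as red over green. On bright spots of the 48 h arrays they correlated at -0.972 to -0.984 with background-subtracted log2 ratios of green over red, taken before normalization. Their sign was therefore turned. Their column medians were 0.007 to 0.008, and their scale matched log2 (slopes -0.927 to -0.945), while how they were normalized is not given in the sources used.

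The mean intensities were background-corrected with normexp (offset 50) and loess-normalized within each array in limma 3.58.1 (R 4.3.3, with the package data.table in version 1.17.8), with control spots at weight 0. Spots flagged as outliers were left out, spots of a probe were averaged, and the brightest probe stood for its gene. Of the 17802 genes tested, 5130 were named by RefSeq accession, 37 by another accession, 2486 by current symbol and 1700 by synonym. The other 8449 kept the array's own name and are not discussed by name unless it is a gene symbol. One limma model over all 12 arrays gave a mean per time point and the differences between times, with Benjamini-Hochberg adjustment over all genes tested, and a call is an adjusted p under 0.05. The number of arrays limits the precision. Tested on simulated data for 48 h against the reference (17802 genes, 100 changed at each size), the model called 100 of 100 genes changed by 0.5 and 100 of 100 changed by 1, with 9 of the 17602 unchanged genes called. For 48 h minus 24 h it called 93, 100 and 9. The simulated noise was normal, independent between arrays and of the model's own fitted spread. It held no dye, slide or reference effects, so the simulation cannot show how the model handles those.

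The members and lists were chosen with earlier results of these data known. Named were, among genes with a symbol, called and of the same sign on all 3 arrays of 48 h, the 15 largest rises and falls at 48 h and the 8 largest each way for 48 h minus 24 h and for 48 h minus 4 h. Up to 6 called members with the largest change were named per list (5 for a list of under 10 measured members), with further members as examples, and 14 genes were always given. The alternatives were other background corrections, the scanner software's processed signals, median centring without loess, the authors' log2 values, other filters, the mean of a gene's probes, a replicate block, fewer arrays in the fit, array weights and leaving out each array. Results on some genes are not reported here.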

Additional observations from a re-analysis of the deposited data

Results flagged for a closer look

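The test of the difference between time points called 2633 genes between 48 h and 24 h and 8392 between 48 h and 4 h, so the change against the reference differed between times for these genes. The genes with the largest differences, all called by limma, are given with their log2 values.

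For 48 h minus 24 h, the genes that were higher at 48 h were Angpt2 (1.58), Ltbp1 (1.31), Rufy3 (1.28), Pcp4 (1.27), Itpka (1.22), Chgb (1.21), Tm7sf2 (1.20) and Ptprr (1.19). Those that were lower were Fst (-2.47), Vip (-1.75), Egr1 (-1.33), Id1 (-1.12), Odc1 (-1.09), Ppp1r15a (-1.04), Steap1 (-1.01) and Lmna (-0.95).

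For 48 h minus 4 h, the genes that were higher at 48 h were P2ry6 (2.77), Atp2b3 (2.58, by the brighter of its probes), Il17re (2.55), Lzts1 (2.53), Zfp467 (2.49), Enc1 (2.46), Scd2 (2.40) and Tmem204 (2.37). Those that were lower were Fst (-3.98), Rgs2 (-3.73), Id4 (-3.70), Nr4a3 (-3.24), Nr4a1 (-3.01), Tac1 (-2.75), Crem (-2.57) and Sik1 (-2.14). Both comparisons use the 48 h arrays, and Fst stands in both.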

How the results depend on the processing

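The loess step mattered most. With each array centred on its median instead, 1295 genes were called between 48 h and 24 h, and the genes changed by 2-fold or more at 48 h were 90 higher and 1184 lower. Under it the list medians turned for neuronal cytoskeleton (-0.08), neuronal markers (-0.01), cytosolic ribosomal proteins (-0.86), transmitter synthesis (0.24), amino acid response (-0.13), glial markers (0.05) and leukocyte markers (0.32). So did the 48 h values of Cenpf (0.33), Ddc (0.31), Enc1 (-0.02), Gap43 (-0.54), Gapdh (-0.72), Lamp1 (-0.52), Ltbp1 (-0.09), Nr4a3 (-0.19), Odc1 (-0.13), Pola1 (0.35), Prph (-0.15), Ptprn2 (0.08), Ptprr (-0.46), Rgs2 (-0.35), Scg3 (-0.12), Stmn2 (-0.07), Tm7sf2 (-0.14) and Vgf (-0.66). The number of changes past 2-fold moved with the background step, to 536 higher and 488 lower with a normexp offset of 0, and 958 and 1026 with the scanner software's processed signals. Array weights gave 4042 calls between 48 h and 24 h, and the cause was not tested. Requiring both channels above background turned the median of transmitter synthesis to 0.17, over fewer genes. Leaving out 1 array of the time points that a count compares gave 8762 to 9322 calls at 48 h, 1874 to 2689 between 48 h and 24 h, 7524 to 8104 between 48 h and 4 h, and, past 2-fold, 232 to 245 genes higher and 234 to 244 lower. The replicate number, which is also the slide, was tried as a replicate block, with 10930, 3346 and 9153 calls for the 3 comparisons and 14, 0 and 16 calls lost. Same-numbered arrays of 48 h and 24 h, which share a slide, deviated together at 0.427, 0.179 and 0.069. Their highest correlations with another number were -0.145, 0.141 and 0.305, so only array 3 correlated better with another number. For 48 h and 4 h the values were 0.45, 0.137 and 0.229, against -0.236, 0.203 and 0.185. Only array 2 correlated better with another number there. The arrays of a slide thus shared deviations, most clearly for array 1. The main fit did not model the slide, and these correlations do not show that it can be left out. The block moved the count of calls between 48 h and 4 h by less than 1.5 times. Genes given as not called at 48 h that were called with median centring also include Hmmr (0.42), Ckap2l (0.59), Isl1 (-0.51), Nefm (-0.78), Map2 (0.46), Orc3 (-0.53), Orc5 (0.48), Pcsk2 (0.35) and Stx1a (0.31), and the calls of Pam (0.12), Rufy3 (0.00) and Tubb3 (0.04) were lost. In all, 68 of the 76 counts stayed within 1.5 times, 277 of 420 list medians moved by no more than their spread between arrays, and 2313 of 2378 values of single genes kept direction and side of the threshold. The total for list medians hides differences between settings, each with 30 medians. Median centring moved 23 and turned the other 7, the processed signals moved 23, a normexp offset of 0 moved 22 and no filter moved 21. The replicate block and a fit of only the arrays compared left all 30 the same.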
